A study of Homo sapiens with 16 samples.

Results

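The comparison set N6-methyladenosine (m6A) sites of temozolomide-resistant glioma cells treated with STM2457 against those of the parental line. It rested on 5 of the study's 16 samples, taken by their labels: 3 m6A-eCLIP libraries of U87 and 2 of STM2457-treated U87-R, among 8 m6A-eCLIP libraries that have a list of called bases. U87 is the U87 MG line, an established human glioma line, and its libraries came from cells under the DMSO control. U87-R is U87 MG made resistant to temozolomide (TMZ), an alkylating drug used against glioma, and its medium contained 50 uM TMZ. Treated U87-R cells received 50 uM STM2457 for 96 hours, a compound that inhibits METTL3, the enzyme that writes m6A. The 3 U87-R libraries under DMSO were used to find which genes already differed between the lines. All cells grew in the same basal medium with serum, and polyadenylated RNA was the labelled material. Treated U87-R and U87 therefore differed by line, by TMZ in the medium and by STM2457, and in a direct comparison these cannot be told apart. U87-R is a single resistant derivative, and whether the replicates were grown apart is not given in the labels. The p-values therefore measure how far these libraries scatter, which may be technical.

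m6A is placed on internal adenosines of mRNA, often in last exons and near stop codons, by a complex in which METTL3 is the catalytic subunit and METTL14 its partner. WTAP, VIRMA, ZC3H13 and RBM15B belong to the same writer complex, FTO and ALKBH5 remove methyl groups, and YTH-domain and IGF2BP proteins bind methylated RNA. A related mark, N6,2′-O-dimethyladenosine (m6Am), lies on the first transcribed base next to the cap, is made by another enzyme, PCIF1, and is also bound by anti-m6A antibodies. In glioma, m6A has been studied for stem-like growth and for the response to TMZ, whose main toxic lesion on guanine is repaired by MGMT.

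Each library's list gives called bases with the authors' score, which lists no base that was not called. A base or gene at 0 is thus a base or gene with no call, and the read depth behind a call is unknown. The 8 matched input libraries were not analysed here, so for any gene a change of the mark and a change of the amount of RNA cannot be told apart. In bulk cultures, fewer cells of a type and less RNA per cell cannot be told apart either. Of the 10 defining markers of the line, every one had a called base in at least 1 of the 5 libraries, with a summed score of 12437 to 13711 per U87 library and 4598 and 4717 in the treated ones. Of 27 markers of other cell types, 18 had no called base in these 5 libraries, among them the leukocyte gene PTPRC. The summed score of the 6 tested ones was 682 to 894 in U87 and 575 and 702 after treatment. Most of it lay in the myeloid gene CD68 (338, 269 and 366 in U87, 186 and 232 after treatment), in SLC1A3 (161, 297 and 263, then 115 and 129) and in TUBB3 (148, 171 and 157, then 230 and 289). The myeloid gene CSF1R had 24.8, 3.29 and 90.5 in U87 and 0 and 5.60 after treatment. On the first principal component of the gene sums (52.8% of the variance) the 2 treated libraries lay apart from the 6 others. On the second (14.2%) U87 lay at 58.6, 46.7 and 39.4 and U87-R at -77.8, -15.0 and -63.1. The treated libraries lay between them, at 7.87 and 3.33. On the third (11.4%) replicate 2 of U87-R and replicate 2 of U87 lay apart from the other libraries.

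Called bases at transcript starts were more numerous after treatment, and 8 of them are shown because none was called in any U87 library while both treated libraries listed it. Each window holds 30 bases of the RefSeq genome GRCh38.p14, read 5′ to 3′ on the gene's strand, and the capital is the called base.
ARHGEF40: gctgtcccttagccAgacccggcgagacac
UNG: ggccgcttggcgccAattgctgaccgccac
CTSD: gcgtcatcccggctAtaagcgcacggcctc
PSEN2: ctcagccagctgcgTaaactccgctggagc
STEAP1: cgctctggaggctcAggcgccgcgtggggc
RITA1: cgggccgcgtccgcAgtgctgctggctgct
ALAD: ccccccccgctcttAcgcggtctgtgggag
ADIPOR1: ggaggtgacgcgggAggtcgcgcgcccctt
In ARHGEF40, a guanine nucleotide exchange factor (window chr14:21070290-21070319, plus strand), the annotated first base of the transcript scored 83.0 and 71.7 in the treated libraries and 30.6, 26.2 and 7.85 in U87-R. The first base of UNG, the uracil DNA glycosylase of base excision repair (chr12:109097583-109097612, plus strand), scored 39.8 and 85.7 after treatment, and 32.9 and 22.0 in replicates 1 and 2 of U87-R. CTSD, the lysosomal protease cathepsin D (chr11:1763891-1763920, minus strand), had its called base 21 nt downstream of the first base, at 63.9 and 64.5 after treatment and at 29.6 and 27.4 in replicates 1 and 3 of U87-R. The base of PSEN2, a catalytic subunit of gamma-secretase (chr1:226870605-226870634, plus strand), is a T 3 nt downstream of the annotated start, with scores of 48.2 and 74.8 after treatment and 22.8, 6.67 and 42.0 in U87-R. The windows of STEAP1, a metalloreductase (chr7:90154455-90154484, plus strand), RITA1 (chr12:113185707-113185736, plus strand), ALAD, an enzyme of haem synthesis (chr9:113401269-113401298, minus strand), and ADIPOR1, an adiponectin receptor (chr1:202958297-202958326, minus strand), each have the annotated first base in the capital. In those last 4 genes it scored 56.6 and 36.9, 18.1 and 29.0, 23.2 and 18.6, and 38.9 and 29.0 after treatment, in that order. In U87-R the base of STEAP1 scored 20.9 and 20.7 in replicates 2 and 3, and those of RITA1, ALAD and ADIPOR1 were not listed.

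Most such bases were adenines. Single bases were tested where 1 base was called often enough, and 4623 bases within 50 nt of a start of 2701 genes were called higher in treated U87-R than in U87 and had a window. They lay a median of 3 nt from the nearest annotated start, 61.3% lay within 10 nt of it, 58.6% were an A and 39.4% an A preceded by C. Among all positions of the first 50 transcribed bases of the 34944 promoter windows, 20.5% are A and 6.63% are an A preceded by C. Of the 1054 higher-called bases that were an annotated first base, 96.7% were A and 76.6% an A after C, against 44.4% and 29.6% of 34856 annotated first bases. These shares were not particular to bases that rose, since 95.8% of all 2796 tested first bases were A and 74.1% an A after C.

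Called bases away from transcript starts were fewer in treated U87-R than in U87, and called bases at the starts were more. U87 libraries listed 150135, 171012 and 182556 called bases and treated U87-R 105900 and 110875, a ratio of 0.646. Farther than 50 nt from any annotated start of their gene lay 124562, 139638 and 150144 bases in U87 and 71008 and 75373 after treatment, 0.530 of the U87 mean. Within 50 nt lay 11032, 14135 and 13088 bases in U87 and 19827 and 19695 after treatment, 1.55 times the U87 mean. Neither the counts nor the shares of the 2 groups overlapped, and the exact two-sided permutation test gave p = 0.1 for each, the smallest that 3 against 2 libraries allow.

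The share of gene-assigned bases within 50 nt of a start was 8.45% ± 0.646 (SD, n = 3) in U87, 9.63% ± 0.902 (n = 3) in U87-R and 21.3% ± 0.785 (n = 2) in treated U87-R. Of the score itself, 9.12% ± 0.766 lay near starts in U87 and 29.6% ± 0.851 after treatment. Treated cells lay 12.8 points above the parental line in the share of bases, and the untreated resistant line lay next to it. The summed score near starts was 2.14 times, and that elsewhere 0.512 times, the U87 mean. Bases within 500 nt of the 3′ end of their gene fell further, to 0.403 of the U87 mean, and made up 9.42% ± 0.117 of the bases far from a start in U87 against 7.17% ± 0.135 after treatment. The number of genes with any called base was close, at 10943 ± 248 in U87 and 10696.5 ± 19.1 after treatment, while genes with a base near a start went from 4061 ± 323 to 6283 ± 86.3.

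**Figure D1:**
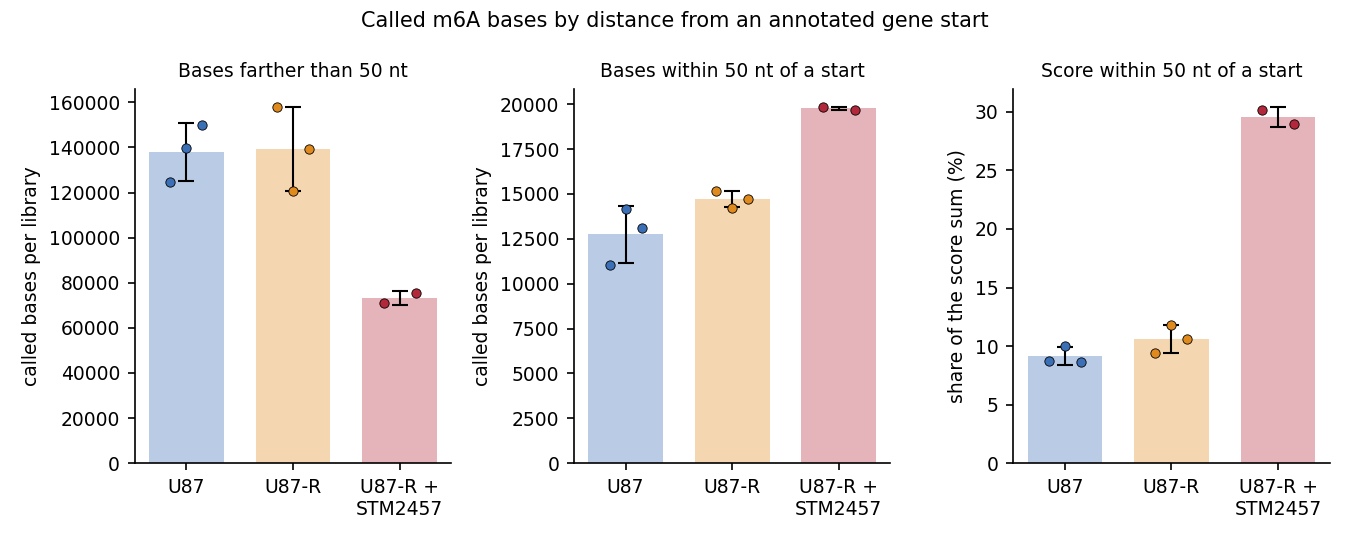
Called bases per library by position in the gene, for U87 (3 libraries), U87-R (3) and STM2457-treated U87-R (2); bars are means, error bars the SD and points single libraries. The left panel counts bases farther than 50 nt from a start and the middle panel those within 50 nt, and the right panel gives the percent of the summed score within 50 nt of a start (9.12% in U87, 29.6% after treatment).

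Which bases of the parental line were left was read from 44742 bases that scored at least 10 in all 3 U87 libraries. After treatment 29.0% of them were in neither treated library and 44.9% scored at least 10 in both. Of the 4255 near a start, 1.41% were in neither and 92.7% in both, and of the 37243 farther away 32.9% were in neither and 38.1% in both. The step lay close to the start: at 51 to 200 nt 29.4% were already in neither, at 201 to 500 nt 38.4%, and beyond 20000 nt 31.9%. For comparison, only 0.290% of the far bases were in no library of untreated U87-R, and 79.8% scored at least 10 in all of its libraries. Bases that U87-R also had in every library numbered 35839, and 51.2% of them were in both treated libraries. Another 133 U87 bases were in no library of U87-R, and after treatment 72.9% of these were in neither treated library and 11.3% were back in both.

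The bases that remained also changed in score. At 4085 near-start bases of U87 that both treated libraries listed, the median score was higher by 0.83 on the log2 scale, with 90.7% of bases higher, and at 18940 such bases farther away it was lower by 0.68, with 26.5% higher. Treated cells had 35817 bases that scored at least 10 in both libraries, and 10.6% of these were in no U87 library. Of those 3804 bases, 63.2% were in no library of untreated U87-R either. Between single libraries, 24.0% to 26.1% of called bases were shared by a U87 and a treated library, against 41.0% to 41.7% between U87 libraries and 41.7% between the treated ones.

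**Figure D2:**
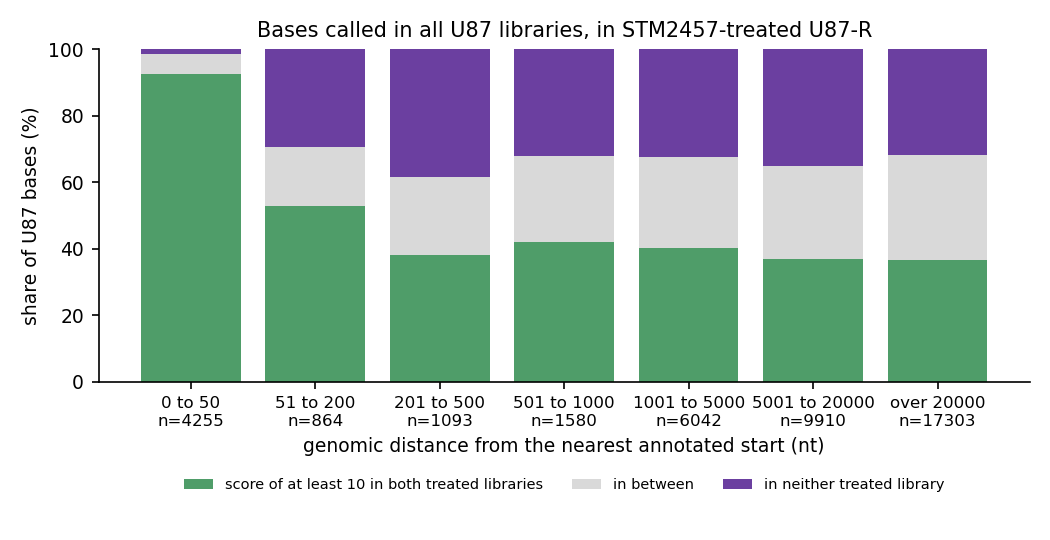
Bases that scored at least 10 in all 3 U87 libraries, by distance from the nearest annotated start of their gene; each column is split into the percent that scored at least 10 in both treated libraries, were in neither, or lay in between, with the number of bases given. Within 50 nt 92.7% were in both, and in every farther bin between 29.4% and 38.4% were in neither.

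In a test of each base (limma on log2(score + 1)), 188742 bases had enough calls and 25.2% were called at an adjusted p under 0.05. Of all tested bases 8.12% were higher in treated U87-R than in U87 and 17.1% lower. Near starts 28.3% were higher and 1.01% lower, and farther away 4.76% were higher and 20.2% lower. Among bases that would have been tested without the treated libraries, 20.5% of 15040 near starts were higher and 1.26% lower, and 1.45% of 142235 farther away were higher and 21.4% lower. The lower bases with the largest changes lay in TNC, the matrix glycoprotein tenascin-C (chromosome 9, 115086127), at 177, 164 and 163 in U87, in DDIT4, an inhibitor of mTORC1 (chromosome 10, 72275230), at 164, 159 and 156, in JUN, an AP-1 transcription factor (chromosome 1, 58781773), at 163, 165 and 149, and in ITGA5, the fibronectin receptor subunit (chromosome 12, 54395844), at 161, 154 and 156. None of these 4 bases was listed in a treated library (adjusted p = 4.84e-06 each). The 5 higher bases with the largest changes were neighbours on the minus strand of chromosome 11, between 61967622 and 61967627, and lay in no single gene because the spans of FTH1 and LOC399900 cover them.

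For each gene, the scores of its called bases were summed per library and log2(sum + 1) was compared. Of 10589 genes tested, 3857 were lower and 1126 higher in treated U87-R than in U87 (limma, adjusted p under 0.05), 47.1% in all, 36.4% lower and 10.6% higher. The median gene was lower by 0.55 on the log2 scale. In all called genes the groups did not overlap, and each library on the higher side had a base. The share without overlap among all tested genes was not computed, so this adds no support to the calls. Among the higher genes 216 had no base in any U87 library, and among the lower ones 296 had none in either treated library. A gene was tested when its sum reached 10 in at least 2 libraries, and 456 genes, 286 of them called higher, did so only with the treated libraries. Among the other 10133 genes 840 were higher and 3857 lower. The split depends on the scale: with each library centred on its median gene 2079 were higher and 3000 lower, and with sums scaled to the same total 2469 were higher and 2511 lower. Without treated replicate 1 the calls were 477 higher and 2610 lower, and without treated replicate 2 they were 499 and 2833.

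Among the genes with the largest gains, several had no call in either untreated line. ERH, a small conserved nuclear protein, summed to 229 and 239.9 after treatment and had no called base in the 6 other libraries, and the same held for PEPD, a dipeptidase that splits proline dipeptides (215 and 189), ARF5, a GTPase of the Golgi (148 and 158), and CAGE1 (130.1 and 219.5). These 4 were tested only because of the treated libraries, and their values are a description. SND1, a nuclease of RNA silencing, had 149 and 152 after treatment, no base in U87 and 3.59 in 1 U87-R library. It too was tested only because of the treated libraries, and its values are a description. Near starts lay 64.6% of the treated sum in ERH, 73.6% in PEPD and 64.5% in ARF5, and none of it in SND1 or CAGE1. ISCU, the scaffold of iron-sulphur cluster assembly, had no base in U87 and 196 and 177 after treatment, but also 89.7 and 100 in replicates 1 and 3 of U87-R. Its adjusted p of 0.00831 became 0.0816 without treated replicate 1 and 0.0736 without replicate 2. The calls of EEF1G, CLTC and PPT1, also among the 10 largest, ended without either treated library as well (adjusted p = 0.061 to 0.0868).

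Genes with the largest losses had most of their U87 score away from starts, as did U87 as a whole, with 9.12% of its score near starts. RPL13, a protein of the large ribosomal subunit, went from 584, 371 and 719.5 to 0 and 0.0702 (adjusted p = 1.69e-05). IVNS1ABP, a Kelch-domain protein, went from 353, 481 and 707 in U87 to no base after treatment, BCL2A1, an anti-apoptotic BCL2 relative, from 222, 266 and 296, MRPS6, a mitochondrial ribosomal protein, from 230.2, 230.5 and 268, PLIN3, a lipid droplet coat protein, from 194, 315 and 227, and INSIG1, a brake on sterol synthesis, from 273, 194 and 257, each to no base in either treated library (adjusted p = 1.46e-05, 8.15e-05, 1.48e-05, 1.48e-05 and 3.6e-05). ATG101, a subunit of the kinase complex that starts autophagy, went from 230.0, 353 and 303 to 0 and 0.387. RPL13 has near-identical copies in the genome, and its assignment is uncertain.

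Fitted apart, start sums were mostly higher and internal sums mostly lower across the tested genes. With bases farther than 50 nt from a start, 5142 of 9810 genes were lower and 623 higher (58.8% called, 52.4% lower and 6.35% higher) and the median gene was lower by 1.18 on the log2 scale. With bases within 50 nt, 2288 of 5142 genes were higher and 63 lower (45.7% called, 44.5% higher and 1.23% lower), and the median gene was higher by 1.62. Of these 5142 genes, 1083 reached the minimum only with the treated libraries, which raises both values. Among the other 4059, 1528 (37.6%) were higher and 63 lower at the start, with a median of 1.24. Inside the gene the same restriction left 348 higher and 5142 lower of 9380, with a median of -1.25. Of 4422 genes tested both ways, 1101 were lower inside and higher at the start, 1 showed the reverse, 44 were lower in both and 170 higher in both. Another 1440 were lower inside with no call at the start, and 696 were higher at the start with no call inside. These joint counts include genes tested at the start only because of the treated libraries. Whether the start and internal changes go together within a gene was not tested. These splits of the bases were chosen after the data were seen.

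In a set of genes named after their values were seen, internal sums were lower and start sums higher after treatment. CRAT, the carnitine acetyltransferase, had internal sums of 436, 562 and 491 in U87 and 4.41 and 0 after treatment, while its start had no base in U87 and 67.6 and 69.4 after treatment. FAM234A went from 166, 217 and 233 inside to no base, and at the start from none to 46.6 and 52.2. APH1A, a subunit of gamma-secretase, had internal sums of 259, 261 and 275 in U87 and 0 and 1.82 after treatment, and start sums of 0 in U87 and 70.7 and 53.8 after it. In RITA1, whose start is printed above, internal sums of 65.8, 148 and 97.9 gave way to none and start sums of none to 37.8 and 29.5. The same was seen in ALAD (111, 62.4 and 108 inside in U87, 30.04 and 36.81 at the start after treatment), STEAP1 (88.0, 115 and 102 inside, then 102 and 86.5 at the start) and VPS29, a retromer subunit (34.7, 76.3 and 68.1 inside, then 55.6 and 70.8 at the start), with no internal base left in the treated libraries. ADIPOR1 had 229, 256 and 249 inside in U87 and 49.1 and 0 after treatment. At its start it had none in U87 and 106 and 71.9 after treatment. The starts of CRAT, FAM234A, APH1A, RITA1, ALAD, VPS29 and ADIPOR1 were tested only because of the treated libraries, and their start values are a description.

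**Figure D3:**
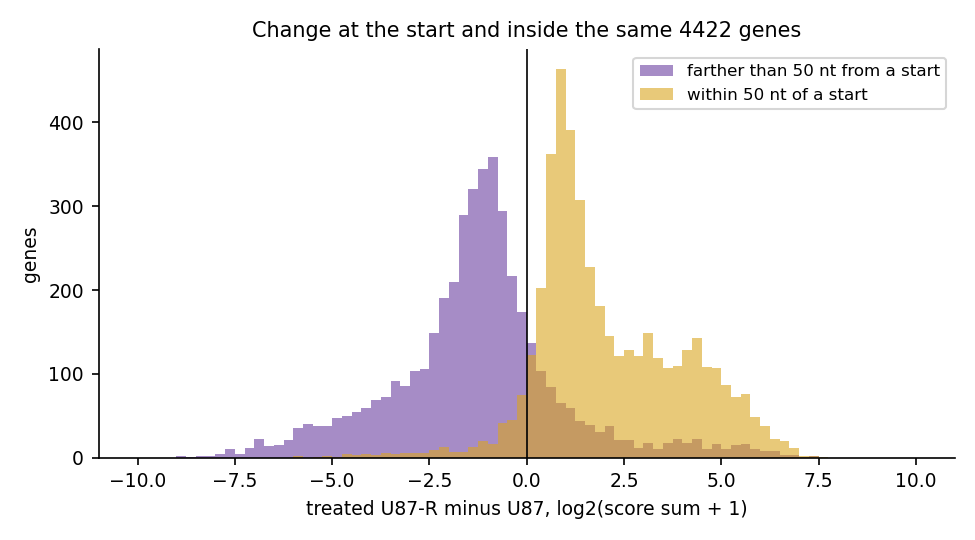
Distribution of the difference of treated U87-R from U87, as log2(sum + 1), for 4422 genes tested at the start and inside the gene. The internal differences have a median of -1.22 and the start differences a median of 1.56. The start differences include genes that reached the minimum only with the treated libraries.

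The differences of the resistant line were then followed into the treated cells. Before treatment 97 genes were higher and 39 lower in U87-R than in U87, 1.28% of those tested (0.916% higher and 0.368% lower), and with the replicate block, which pairs same-numbered libraries, 52 were higher and 16 lower. The number of calls was 57, 191 and 61 when replicates 1, 2 and 3 of U87-R were left out in turn, and 74 when replicate 1 of U87 was. A gene was named kept when treated cells were still called different from U87 in the same direction and were not called different from U87-R. It was named extended when they were called beyond U87-R, and kept in part when they differed from both and lay between. It was named erased when treated cells differed from U87-R and not from U87, overshot when they differed from U87 in the other direction, and unresolved when they differed from neither. These classes share the U87 and the U87-R libraries between their comparisons, so their counts are a description with no test.

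Most differences of the line were still there under the inhibitor. Of the 97 higher genes 65 were kept, 1 extended, 5 kept in part, 19 erased, 4 overshot and 3 unresolved, and of the 39 lower genes 30 were kept, 4 extended, 4 erased and 1 overshot. Treated cells were called lower than U87-R in 28 of the 97 higher genes, 28.9%, against 38.1% of all genes tested (44.4% were called in this comparison, 6.28% higher). Among the 68 genes of the replicate block 52 were kept, 1 extended, 2 kept in part, 10 erased, 2 overshot and 1 unresolved. With every single library left out in turn and with the block, 26 of the 66 kept or extended higher genes stayed in that class, as did 9 of the 34 lower ones, 3 of the 19 erased higher genes and 1 of the 4 erased lower ones, and none of the 5 kept in part, the 5 overshot and the 3 unresolved. For 5 of the 19 erased higher genes, REM1 and ZNF665 among them, the strand came from called bases only. The same held for 10 of the 65 kept higher genes, among them CDH11, INHBE, MDK, PIK3R6 and ZNF488. It also held for 4 of the 30 kept lower genes, HCAR2 and HCAR3 among them. The extended gene MRC2, 2 genes kept in part and 1 unresolved gene were of this kind too. In KRT86, 1 of the 5 erased genes, the bases may belong to a transcript on the other strand, as in GPC3 among the largest losses. KRT86 and GPC3 are counted and not described. A call of erased rests on a p that missed the threshold and does not show that treated cells and U87 were alike. In the same way, a call of kept does not show that treated cells and U87-R were alike. Among kept higher genes, for example, both treated sums lay below all U87-R sums in DOCK8, IGFBP2, PIK3R6, ZNF83 and ZNF415. They lay above all U87-R sums in FANCD2, CDH11 and MDK.

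The kept higher genes described here have different roles, and of the gene lists DNA repair, hypoxia and stress response held 1 each. DOCK8, a guanine nucleotide exchange factor for CDC42 (chr9:211257-465255, plus strand), had no called base in U87, then 188, 114 and 145 in U87-R and, after treatment, 91.9 and 88.1 (adjusted p = 9.74e-05 against U87 and 0.374 against U87-R). All 5 resistant libraries lay above all U87 libraries. FANCD2, the ubiquitinated hub of interstrand crosslink repair (chr3:10026437-10101932, plus strand), was at none in U87, then 22.4, 50.7 and 23.2 in U87-R and, after treatment, 57.1 and 67.6 (adjusted p = 0.000287), and 96.1% of the treated sum lay near its starts. MMADHC, a protein of vitamin B12 metabolism, had none in U87, then 62.1, 129.5 and 99.5 in U87-R and, after treatment, 104 and 190.0. IGFBP2, a binding protein of insulin-like growth factors, had none in U87, then 147, 66.9 and 76.6 in U87-R and, after treatment, 23.6 and 53.2. TNFAIP2, a TNF-induced protein, was already present in U87 at 126, 119 and 201, and rose to 877, 576 and 703 in U87-R and to 720.0 and 579.8 in treated cells, a difference of 2.15 ± 0.27 on the log2 scale (adjusted p = 0.000379). EGLN3, a prolyl hydroxylase that marks HIF proteins for degradation, had 0, 0 and 2.01 in U87 and 17.6 and 21.3 after treatment. PIK3R6, a regulatory subunit of PI3K-gamma, had 0.752, 0.725 and 6.03 in U87, then 245, 258 and 269.7 in U87-R and, after treatment, 85.1 and 142. All 7 kept their class with every library left out and with the block.

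CDH11 and MDK had treated sums above all untreated U87-R libraries, without a call between them. CDH11, a mesenchymal cadherin, had 7.21, 13.8 and 1.01 in U87, then 241, 253 and 152 in U87-R and, after treatment, 554 and 517 (adjusted p = 0.174 against U87-R). MDK, the growth factor midkine, had 4.35, 0.540 and 2.85 in U87, then 112, 25.1 and 76.0 in U87-R and, after treatment, 244 and 275 (adjusted p = 0.0651 against U87-R). INHBE, a stress-induced inhibin subunit, had 0.405, 0.254 and 18.8 in U87, then 1129, 167 and 869 in U87-R and, after treatment, 311 and 263, and its call against U87 ended without treated replicate 1 (adjusted p = 0.0508). The calls of these 3 between the untreated lines ended when single libraries were left out, 3 for CDH11 (adjusted p up to 0.0685), 6 for MDK (up to 0.141) and 5 for INHBE (up to 0.106). Across the 65 kept higher genes, 31 had no base in any U87 library. Near starts lay 13.7% of their summed score in U87-R and 26.2% in treated cells.

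Zinc finger genes of chromosome 19, which encode KRAB-type repressors in large clusters, made up 22 of the 97 higher genes, 16.1% of the 137 tested against 0.916% of all genes. The group was chosen after these calls were seen. Of these, 20 were kept, ZNF875 was kept in part and ZNF665 erased, 16 had no base in any U87 library, and 15 were called with the block. Treated sums lay below U87-R in 16 of the 22, 2 of them called. ZNF488, a zinc finger gene outside that chromosome, had none in U87, then 234, 65.4 and 146 in U87-R and, after treatment, 142 and 135. ZNF83 had none in U87, then 142, 101 and 124 in U87-R and, after treatment, 29.3 and 44.0, and ZNF415 had 0.751, 0 and 3.27 in U87, then 347, 334 and 286 in U87-R and, after treatment, 65.7 and 115. ZNF875 went from 0, 0 and 0.203 in U87 to 232, 206 and 208 in U87-R and, after treatment, 43.0 and 47.1 (adjusted p = 0.000191 against U87 and 0.0135 against U87-R). These genes are closely related in sequence and their assignment is uncertain. Among all 137 zinc finger genes of the chromosome that were tested, 39 were higher (28.5%) and 17 lower (12.4%) in treated cells than in U87, against 10.6% and 36.4% of all genes, with a median of 0.35 against -0.55. With libraries centred 52 were higher and 13 lower (38.0% and 9.49%, against 19.6% and 28.3%), and with scaled totals 57 and 10 (41.6% and 7.30%, against 23.3% and 23.7%). Of these genes 123 would have been tested without the treated libraries, with 27 higher, 17 lower and a median of 0.08.

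Kept lower genes were mostly genes that the resistant line had lost and that stayed without a call. LDOC1, a regulator of NF-kB signalling (chrX:141173235-141177129, minus strand), had 535, 495 and 653 in U87, then 0.747, 0 and 0 in U87-R and none after treatment (adjusted p = 4.63e-05). ACTL8, an actin-like protein, had 122, 115 and 125 in U87, then 0, 0.598 and 0 in U87-R and none after treatment, and ESM1, an endothelial proteoglycan, had 192, 259.8 and 215 in U87, then 6.24, 3.35 and 0.557 in U87-R and none after treatment. HCAR2 and HCAR3, neighbouring receptors for hydroxycarboxylic acids, had none after treatment. In U87 they had 26.0, 92.9 and 88.4 (HCAR2) and 24.5, 87.9 and 61.7 (HCAR3), though they are near-identical and reads may be shared. SERPINB2, an inhibitor of plasminogen activators, kept a level: it had 241, 302 and 275 in U87, then 60.8, 39.1 and 55.9 in U87-R and, after treatment, 35.5 and 45.8, where it fell by 2.72 ± 0.34 on the log2 scale against U87 (adjusted p = 0.000362). In 20 of the 30 kept lower genes neither treated library had a base.

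Erased genes included MGMT, which removes alkyl groups from guanine (chr10:129467241-129770983, plus strand). It had no called base in U87, then 158, 101 and 107 in U87-R and, after treatment, 0.238 and 0.268 (adjusted p = 0.00195 for U87-R against U87, 0.0125 with the block, 0.712 for treated cells against U87 and 0.000158 against U87-R). COL13A1, a transmembrane collagen (chr10:69801906-69959144, plus strand), had 309.7, 334 and 376 in U87, then 876, 909 and 836 in U87-R and, after treatment, 291 and 345, a difference from U87 of -0.10 ± 0.15 on the log2 scale (adjusted p = 0.619). Its treated sums overlapped those of U87, but 15.2% of its U87 sum and 52.3% of its treated sum lay near starts. REM1, a small GTPase, had none in U87, then 48.3, 54.0 and 68.4 in U87-R and none after treatment. KLF4, a stem cell transcription factor, had 38.6, 108 and 55.2 in U87, then 424, 213 and 289 in U87-R and, after treatment, 45.2 and 31.4, and G0S2, an inhibitor of lipolysis, 192, 386 and 251 in U87, then 964, 823 and 982 in U87-R and, after treatment, 189.9 and 249.8. With the block the difference of KLF4 between the untreated lines had an adjusted p of 0.126, and that of G0S2 ended without U87-R replicate 1 or 3 or either treated library (0.058 to 0.0629).

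In the other direction, 4 genes with a base in every U87 library and almost none in U87-R had bases again after treatment. CHUK, the IKK-alpha kinase, had 31.1, 33.4 and 18.8 in U87, none in U87-R and, after treatment, 26.1 and 26.1, and kept its class with every library left out and with the block. SAT1, which acetylates spermine, had 99.4, 29.7 and 188 in U87, none in U87-R and, after treatment, 22.8 and 22.7. LRSAM1, a ubiquitin ligase, had 23.2, 22.6 and 22.1 in U87, then 0, 1.71 and 0 in U87-R and, after treatment, 68.2 and 46.7, and GUCY1A2, a guanylate cyclase subunit, 5.80, 22.7 and 11.5 in U87, none in U87-R and 5.65 and 9.01 after treatment. The differences of LRSAM1 and GUCY1A2 between the untreated lines were not called with the block (adjusted p = 0.0838 and 0.114).

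Partial and overshooting differences were few. CMKLR1, a chemerin receptor, had none in U87, then 116, 37.7 and 148 in U87-R and, after treatment, 5.82 and 2.95, with differences from U87 on the log2 scale of 6.46 ± 0.72 before and 2.38 ± 0.81 after treatment (adjusted p = 0.00447 and 0.039). AJUBA, a Hippo pathway scaffold, had 86.9, 165 and 102 in U87, then 398, 389.6 and 367 in U87-R and, after treatment, 226 and 209, with differences of 1.75 ± 0.24 and 0.93 ± 0.27 (adjusted p = 0.0107 and 0.0215). In both genes the treated libraries lay between U87 and U87-R without overlap, and their calls against U87 ended when single libraries were left out (adjusted p up to 0.142 and 0.123). With the block neither they nor ZNF875 stayed in this class.

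Among the overshooting genes, PDE10A, a cyclic nucleotide phosphodiesterase (chr6:165327289-165988052, minus strand), had 20.8, 29.7 and 27.7 in U87, then 406, 257 and 311 in U87-R and, after treatment, 0.311 and 0.360. Its rise in U87-R was 3.58 ± 0.48 (adjusted p = 0.00851, 0.0473 with the block) and after treatment it fell by 4.33 ± 0.53 against U87 on the log2 scale (adjusted p = 0.000354). The rise lost its call without U87-R replicate 1 (0.0647) or 3 (0.0659). FIS1, a protein of mitochondrial fission, went the other way, with 28.6, 48.2 and 68.1 in U87, then 0, 0 and 0.359 in U87-R and, after treatment, 228 and 216. Its gain over U87 of 2.26 ± 0.66 (adjusted p = 0.0219) ended without U87 replicate 1 or either treated library (0.0559 to 0.0652). For NRSN2, LRP10 and CRYBG1 the call between the untreated lines ended with the block and when most single libraries were left out. Extended genes included MRC2, a collagen receptor, at 128, 162 and 153 in U87, then 310.3, 309 and 254 in U87-R and, after treatment, 509 and 532, and in the lower direction SLC9A3, a sodium-proton exchanger, at 889, 814 and 1077 in U87, then 468, 375 and 363 in U87-R and, after treatment, 151 and 167, and ZNF503, a transcriptional repressor, at 2948, 2835 and 3006 in U87, then 1958, 2089 and 2030.1 in U87-R and, after treatment, 793 and 907. Between the untreated lines MRC2 and ZNF503 were not called with the block (adjusted p = 0.113 and 0.161), and SLC9A3 not without U87-R replicate 3 (0.059).

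**Figure D4:**
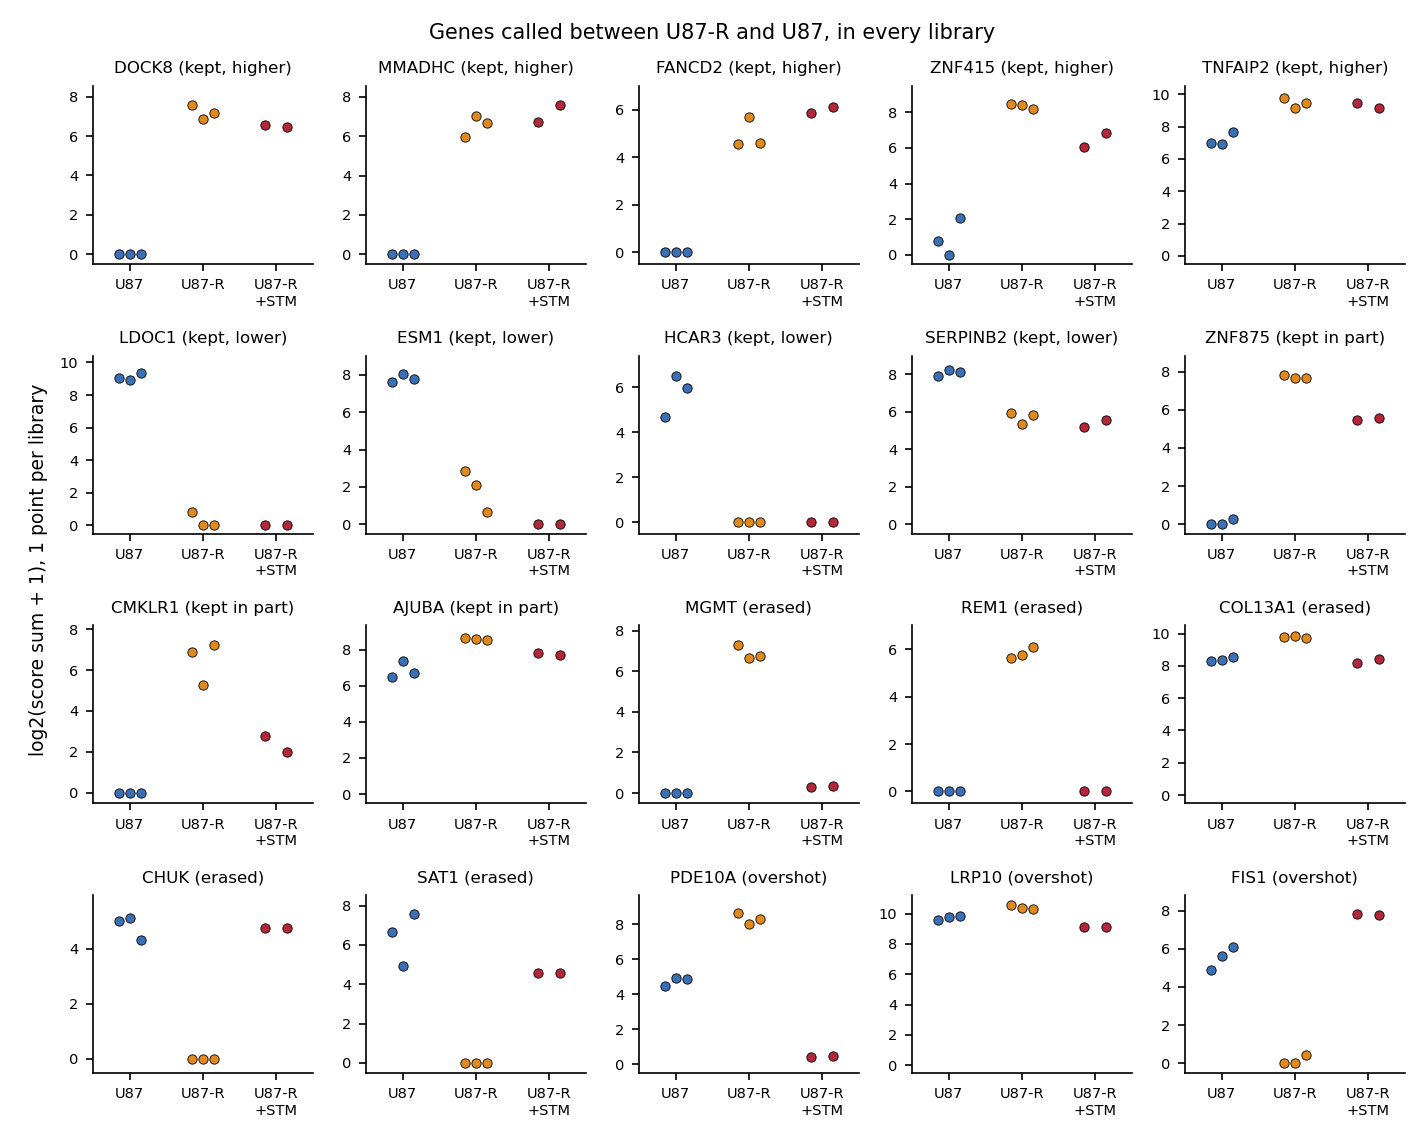
Log2(sum + 1) of 20 genes that differed between U87-R and U87, per library, for U87, U87-R and STM2457-treated U87-R; each point is 1 library. MGMT and REM1 lie at or near 0 in U87 and after treatment. DOCK8 and FANCD2 lie above U87 in U87-R and after treatment, and LDOC1 and ESM1 lie below it.

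Gene lists were read against the 10.6% of tested genes that were higher and the 36.4% that were lower. With libraries centred these shares were 19.6% and 28.3%, and with scaled totals 23.3% and 23.7%. In the m6A machinery 13 of 24 tested genes were lower and 3 higher (10 and 4 with libraries centred, 7 and 4 with scaled totals), with a median of -0.61. Among writers, the catalytic METTL3 itself had 95.7, 122 and 122 in U87, then 242, 113 and 207 in U87-R and, after treatment, 134 and 161 (adjusted p = 0.386), with a near-start difference of 1.06 and an internal one of -2.98 on the log2 scale. VIRMA fell by 1.32 ± 0.20 on the log2 scale, from 594, 765 and 779 to 249 and 322, METTL14 fell by 1.62 ± 0.33 from 152, 281 and 284 to 70.5 and 78.0, and WTAP fell by 1.35 ± 0.16. Among erasers, FTO went from 159.9, 135 and 149 to no base (adjusted p = 3.76e-05) and ALKBH5 from 341, 427 and 414 to 80.1 and 49.3 (adjusted p = 0.000123). Among readers, IGF2BP2 went from 467, 479.9 and 442 to 64.6 and 84.4, a fall that was larger still inside the gene (-4.39), while its near-start difference of 1.70 was not called (adjusted p = 0.15). MAT2A, which makes the methyl donor S-adenosylmethionine and carries methylated hairpins near its end, went up from 448, 500.5 and 519 to 885 and 904, by 0.87 ± 0.18 (adjusted p = 0.00423), though its number of called bases fell by 0.59 on that scale. The calls of HNRNPA2B1 and HNRNPC, the other higher members, ended without either treated library (adjusted p = 0.0598 to 0.184).

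Nuclear-encoded oxidative phosphorylation genes went against the general fall. Of 35 tested members 21 were higher and none lower (27 and 0 centred, 28 and 0 with scaled totals), with a median of 1.25. By complex, 8 of 14 of complex I, 1 of 4 of complex II, 2 of 4 of complex III, 7 of 8 of complex IV and 3 of 5 of the ATP synthase were called higher. NDUFS8, an iron-sulphur subunit of complex I, went from 116, 163 and 113 to 379 and 347, by 1.49 ± 0.25 on the log2 scale (adjusted p = 0.00147). SDHC, a membrane anchor of complex II, went from 34.8, 29.4 and 27.1 to 125 and 155, UQCRQ of complex III from 168, 175 and 121 to 393 and 402, COX5B of complex IV from 117, 114 and 99.0 to 262 and 267, and ATP5F1A, the alpha subunit of the ATP synthase, from 100.2, 132 and 122 to 293 and 266. UQCRB of complex III had no base in U87 and 160.0 and 101 after treatment, and NDUFB9 of complex I none and 134 and 98.1. Of the 35 members, 31 would have been tested without the treated libraries, and 17 of these were higher, with a median of 1.04. At the start 19 of 31 tested were higher and none lower (61.3%, against 44.5% of all genes), with a median of 0.97, below the 1.62 of all genes. Inside the gene 11 of 20 were higher and 2 lower (55.0%, against 6.35% of all genes), but 9 of the 20 reached the minimum only with the treated libraries, and of the other 11, 3 were higher and 2 lower (median 0.27). Of the 21 calls, 7 ended without treated replicate 1 and 6 without treated replicate 2, and several small subunits have processed copies, which makes their assignment uncertain. Ribosomal protein genes were split, 6 of 19 higher and 5 lower (7 and 5 under both other scales, and 1 and 5 of the 14 that would have been tested without the treated libraries), with RPS12 at none in U87 and 44.2 and 56.4 after treatment and RPL28 at 268, 138 and 284 in U87 and 18.9 and 20.3 after treatment, and are uncertain for the same reason.

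Genes of the early response and of glioma stem cells were often lower. In the immediate early and AP-1 list 22 of 30 were lower and none higher (17 lower and 4 higher centred, 16 and 4 with scaled totals), with a median of -1.04. JUN had 3716, 3970.0 and 3722 in U87 and 1596 and 1828 after treatment, the growth regulator MYC 1454, 1434 and 1308 in U87 and 631 and 583 after treatment, IER3, an early response gene, 1894, 2159 and 1956 in U87 and 538 and 513 after treatment, and ZFP36L2, which binds AU-rich elements, 865, 1046 and 974 in U87 and 172 and 141 after treatment. IER3 fell by 1.93 ± 0.12 on the log2 scale (adjusted p = 2.56e-05) and ZFP36L2 fell by 2.62 ± 0.17 (adjusted p = 2.98e-05). Of the glioma stem and neural progenitor factors 11 of 21 were lower and none higher (11 and 1 centred, 9 and 1 with scaled totals), with LIF, a cytokine of self-renewal, at 3214, 3653 and 3394 in U87 and 474 and 494 after treatment, NOTCH2, a receptor, at 3115, 3095 and 3481 in U87 and 1236 and 1368 after treatment, and ID3, an inhibitor of differentiation factors, at 79.8, 195 and 109.6 in U87 and none after treatment. SOX2 had no called base assigned to it. In a wider list of chromatin regulators 27 of 39 were lower and 2 higher (23 and 3 centred, 18 and 5 with scaled totals), led by SUZ12 of the Polycomb complex (118, 152 and 213 to 0 and 6.88) and the methyltransferase NSD2 (853, 1228 and 852 to 148 and 107). Among the 38 that would have been tested without the treated libraries, 27 were lower and 1 higher. The 2 higher calls, SMARCA4 and SMARCB1, ended without treated replicate 1 (adjusted p = 0.186 and 0.0739).

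Growth signalling genes were mostly lower. Of receptor tyrosine kinase, PI3K and MAPK genes 20 of 34 were lower and none higher (16 and 3 centred, 14 and 4 with scaled totals), with a median of -0.98. The receptor EGFR, amplified or mutated in many gliomas, fell by 1.25 ± 0.17 on the log2 scale, from 1709, 1482 and 1585 to 589.5 and 758 (adjusted p = 0.000562), and the receptor MET (adjusted p = 0.000243) from 983, 1209 and 1076 to 340.0 and 432. Inside the pathway AKT2, a kinase downstream of PI3K, went from 676, 712 and 813 to 143 and 145. The feedback phosphatase of MAP kinases DUSP4 went from 982, 908 and 1128 to 207 and 203, and DUSP1 from 1884, 2054 and 1845 to 531 and 507. In the WNT, BMP and Hippo list 16 of 32 were lower and 1 higher (12 and 3 centred, 11 and 4 with scaled totals): the ligand WNT5A went from 3566, 3531 and 4175 to 814 and 890.3, the BMP antagonist GREM1 from 984, 1751 and 1106 to 149 and 117, and NF2, an upstream Hippo regulator, from 134, 150.1 and 112 to 0 and 3.68. Of cell cycle and p53 genes 13 of 23 were lower and 1 higher (10 and 1 centred, 10 and 2 with scaled totals), among them the inhibitor CDKN1B (406, 493 and 452 to 62.6 and 75.1), cyclin D1, CCND1 (478, 526 and 458 to 194 and 124), and FOXM1, a mitotic transcription factor (665, 1035 and 599 to 114 and 156). The higher call of BTG2, an antiproliferative p53 target, ended without treated replicate 1 (adjusted p = 0.0509).

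Of mesenchymal and matrix genes 21 of 37 were lower and 2 higher (15 and 4 centred, 13 and 5 with scaled totals). The collagen cross-linker LOXL2 went from 661, 641 and 776 to 116 and 141 (adjusted p = 3.6e-05), the ligand TGFB2 from 273, 468 and 216 to 19.9 and 32.3, its receptor TGFBR2 from 135, 138 and 208 to 8.73 and 0, and N-cadherin, CDH2, from 44.9, 70.8 and 57.0 to 0 and 0.619. FN1, fibronectin, was higher at 331 and 234 against 0, 0 and 41.4, but its call ended without either treated library (adjusted p = 0.0902 and 0.0692), as did that of SPARC (0.203 and 0.0833). Hypoxia and glycolysis genes were lower in 12 of 26 and higher in 3, 46.2% and 11.5% (8 and 5 centred, 5 and 5 with scaled totals). The angiogenic factor VEGFA went from 3634, 3897 and 4249 to 1174 and 1472 and HIF-2 alpha, EPAS1, from 1004, 1252 and 1219.6 to 373 and 397. P4HA1, a collagen prolyl hydroxylase, and ENO1, a glycolytic enzyme, were higher, the first from none to 53.4 and 42.5 and the second from 457, 471 and 354 to 767 and 763. Of the hypoxia and glycolysis genes 23 would have been tested without the treated libraries, with 2 higher and 12 lower.

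Of DNA repair genes 4 of 31 were higher and 4 lower, 12.9% each against 10.6% and 36.4% of all genes, with a median of 0.12. Centred libraries gave 6 and 2 and scaled totals 10 and 1, against 19.6% and 28.3%, and 23.3% and 23.7%, of all genes. Among the 28 that would have been tested without the treated libraries, 3 were higher and 4 lower. FANCD2 was described above, and PARP1, the break-sensing poly(ADP-ribose) polymerase, went from 185, 233 and 187 to 335 and 386 (adjusted p = 0.00949, 0.0618 without treated replicate 2). TP53BP1, which directs break repair to end joining, went from 389, 301 and 423 to 51.5 and 50.6 (adjusted p = 7.36e-05). Of drug transport and oxidative detoxification genes 5 of 18 were higher and 5 lower (8 and 3 under both other scales). Among the 17 that would have been tested without the treated libraries, 4 were higher and 5 lower. NQO1, a quinone reductase, went from 131, 215 and 156 to 637 and 479 and TXNRD1, thioredoxin reductase, from 310.3, 431 and 346 to 884 and 795, while their activator NFE2L2 went down from 959.8, 993 and 1033 to 391 and 414 and its inhibitor KEAP1 from 459.9, 491 and 557 to 292 and 304. ALDH1A3, an aldehyde dehydrogenase of mesenchymal glioma cells, went from 605, 555 and 764 to 94.1 and 95.7.

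Apoptosis genes were lower in 11 of 26 and higher in 4 (9 and 5 centred, 8 and 6 with scaled totals). These shares were 42.3% and 15.4%, against 36.4% and 10.6% of all genes. The inhibitor BIRC3 went from 122, 379 and 115 to no base (adjusted p = 8.89e-05) and BIRC2 from 404, 729.7 and 485 to 88.4 and 129 (though at its start it was higher by 5.11 on the log2 scale, adjusted p = 0.000241), the anti-apoptotic BCL2L1 from 890.2, 895 and 929 to 474 and 388, and the pro-apoptotic BAD and BID went up, from 146, 165 and 193 to 307 and 341 and from 260.5, 289.9 and 294 to 469 and 495. By the number of called bases BID was lower by 0.76, and without bases near starts lower by 0.12. The pro-apoptotic caspases CASP8 and CASP9 were called lower, so pro-apoptotic members were called in both directions. The other higher members were the pro-apoptotic BAX and NFKB2, an NF-kB subunit. Without U87 replicate 3 the calls of CASP9, BAX and NFKB2 ended. In the stress list 9 of 23 were lower and 3 higher (6 and 6 centred, 5 and 10 with scaled totals). These were 39.1% and 13.0%, near the 36.4% and 10.6% of all genes. The chaperones HSPA5 (944, 896 and 856 to 261 and 253) and HSPA8 (574, 618 and 519 to 164 and 175) were lower and HSP90AB1 (366, 368 and 356 to 635 and 599) higher. Interferon and sensing genes were lower in 4 of 19 and higher in 2, 21.1% and 10.5% (2 and 3 centred, 0 and 5 with scaled totals). Of the higher ones IFI44 went from 141, 151 and 115 to 258 and 259. Of 15 long noncoding RNAs 7 were lower and 1 higher, 46.7% and 6.67% (6 and 2 centred, 5 and 4 with scaled totals). Among the 14 that would have been tested without the treated libraries, 7 were lower and none higher. TUG1 went from 2847, 2728 and 3340.4 to 1469 and 1529 and DANCR from 27.9, 4.37 and 28.1 to no base. MALAT1 had 3189.7, 2688 and 4044 in U87 and 1359.5 and 1520.0 after treatment (adjusted p = 0.00383). Its call ended without treated replicate 1, where the difference was -1.10 on the log2 scale.

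Some list calls ended when 1 library was left out. Without treated replicate 1, the lower calls that ended were 10 of 27 for chromatin regulators, 7 of 20 for growth signalling, 5 of 13 for cell cycle genes, 7 of 12 for hypoxia genes, 4 of 9 for stress genes, 4 of 7 for long noncoding RNAs and 3 of 4 for DNA repair. Without treated replicate 2, 6 of 16 lower calls of WNT, BMP and Hippo genes and 3 of 4 of interferon genes ended, as did 3 of 4 higher calls in DNA repair, 3 of 5 in drug transport and detoxification and 2 of 4 in apoptosis. Without treated replicate 1, 2 of 4 higher calls in DNA repair, 2 of 5 in drug transport and 2 of 3 in the stress response ended, and so did 2 of 4 lower interferon calls. Leaving out parental replicate 3 ended 2 of 4 higher apoptosis calls and 2 of 4 lower interferon calls. Of the 3 higher calls in the m6A machinery, 2 ended without any 1 of these 3 libraries.

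**Figure D5:**
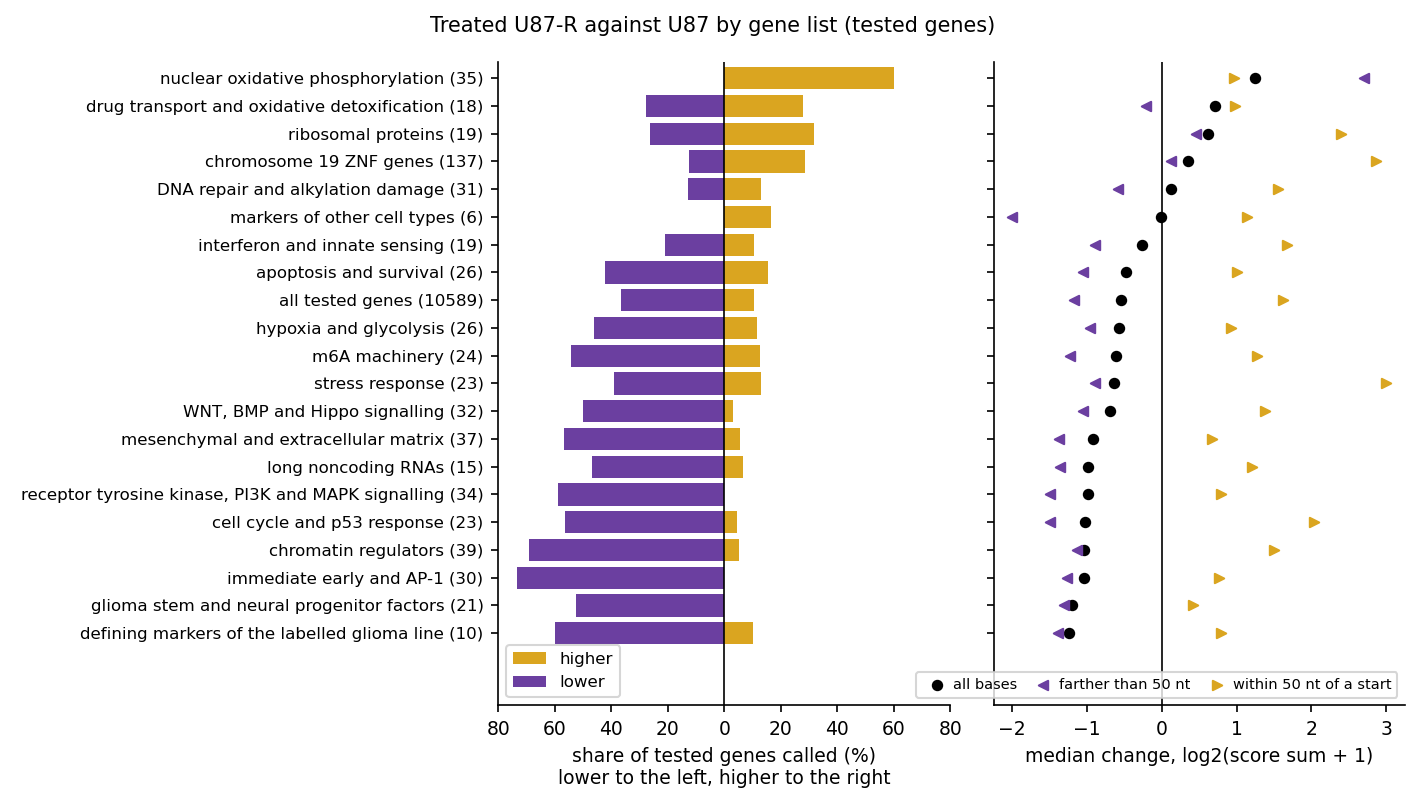
Left, percent of tested members of each gene list called lower and higher in treated U87-R than in U87; right, the median difference as log2(sum + 1) for all bases, bases farther than 50 nt from a start and bases within 50 nt. In nuclear oxidative phosphorylation no member is lower, and its median is 1.25 against -0.55 for all tested genes.

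The authors' lists of sites and peaks reproducible within a group were split by position as well. U87 had 33396 reproducible sites and treated U87-R 12791, and 27.7% of the U87 sites were on the treated list, which is 72.3% of that list. Of U87 sites near a start 86.9% were on the treated list, and of those farther away 24.2%. In the treated list 29.1% of sites lay near a start, against 5.31% in U87. Treated sites farther away were on the U87 list in 87.5% of cases, and those near a start in 41.4%.

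Shares on the treated list differed by where a site had been called before. Of 28016 sites on the lists of both U87 and U87-R, 32.0% were on the treated list, of 7191 sites of U87-R alone 15.2%, and of 5380 sites of U87 alone 5.33%. Among the sites of U87-R alone, 70.9% of those near a start and 7.12% of those farther away were on the treated list. On the treated list 2450 sites, 19.2%, were on neither of the other lists. Of 95629 reproducible peaks of U87, 59.0% overlapped 1 of the 50034 peaks of treated cells by at least 1 base, and 79.7% of the latter overlapped a U87 peak. Peaks of U87-R alone overlapped a treated peak in 33.6% of cases and peaks of U87 alone in 17.0%. These lists were each built from different numbers of libraries, 3 in U87 and 2 in treated U87-R, and their overlaps carry no test.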

How the data were processed

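m6A-eCLIP, an immunoprecipitation of m6A-bearing RNA fragments that reads the crosslinked base, was run on 8 libraries, 3 of U87, 3 of U87-R and 2 of STM2457-treated U87-R. Reads were processed with UMI-tools, cutadapt and STAR on hg38, per the submitters' processing notes. Bases and peaks were called by the authors, with callers and score formula not given in the sources used here. Per library, the authors deposited called bases with a score, and per group, reproducible sites and peaks with a combined score and the fraction of the group's libraries in which each passed. Depth is unknown, and the files allow no counting interval.

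Scores of called bases on a gene's strand were summed over its span in the RefSeq tables (GRCh38.p14); strand and starts came from the RefSeq promoter table for 11328 genes and, for 1814 others, strand came from the called bases. Of 452349 bases called in any library, 396326 (87.6%) fell in 1 gene and the rest were left out of gene sums. Genes that summed to 10 or more in 2 or more libraries were compared as log2(sum + 1) in limma 3.58.1 (R 4.3.3) over all 8 libraries with 3 group means, with Benjamini-Hochberg adjustment and a threshold of 0.05. Differences are on that scale, which understates changes of low genes. Each of the 3 contrasts shares libraries with the others. Single bases were tested the same way, and the gene test was also tried on data simulated from the gene means and spreads of these libraries. Python 3.11.15, pandas 2.3.3, scipy 1.17.1 and bedtools 2.31.1 were used. A start base is one within 50 nt of the nearest annotated start, by genomic distance.

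Named genes were the 10 largest called changes per direction, up to 8 per class and direction, up to 2 per gene list and direction, and METTL3, MGMT, SOX2, EGFR, MALAT1 and MAT2A; a few genes the rule chose are not reported here; the other list members and the genes whose start and inside moved apart were named after their values were seen. The members and lists were chosen with earlier results of these data known. Same-numbered U87 and U87-R libraries had correlated deviations (0.102, 0.316 and 0.114), so the fit with a replicate block is given for that contrast. Replicates 1 and 3 also correlated across numbers, at 0.119 (U87 1 with U87-R 3) and 0.140 (U87 3 with U87-R 1). Pairs of replicate 2 with replicate 1 or 3 lay between -0.204 and -0.175. Replicate 2 thus stood apart, and these values do not show a pairing by number. Same-numbered U87 and treated libraries did not deviate together (-0.024 and -0.016). Alternatives were another pseudocount, other filters, 2 other scales, a score minimum, the number of called bases, the block, each library left out, and, added after seeing the data, bases far from or near starts only.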

Additional observations from a re-analysis of the deposited data

How the results depend on the processing

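Depth is unknown, and 2 treated libraries limit every test. Against 1126 genes higher in treated U87-R and 3857 lower, 2079 were higher with libraries centred, 2469 (and 2511 lower) with scaled totals, 452 by the number of called bases, 623 without bases near starts, and 2288 (and 63 lower) with bases near starts only. With the replicate block, although these libraries did not pair, 977 were higher and 3329 lower. Leaving out single libraries gave 477 to 1266 higher and 2610 to 4096 lower genes, 11881 to 15722 higher and 23744 to 33428 lower bases, a ratio of called bases of 0.613 to 0.675 and a gain in the near-start share of 12.3 to 13.4 points.

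Kept genes, extended ones included, numbered 100, and 51 by the number of called bases, 53 with the block and 65 with sums of at least 50 (44 to 124 with single libraries left out). The 5 kept in part became 3 with bases scoring at least 10 and with libraries centred, 8 by the number of called bases and with a pseudocount of 10, 2 with the block, 10 without bases near starts and 11 at an adjusted p under 0.1 (2 to 9). The 23 erased became 40 with bases scoring at least 10, 8 by the number of called bases, 10 with the block and 39 at an adjusted p under 0.1 (8 to 50). The 5 overshot became 2 with no filter and with the block, 3 with scaled totals and 15 at an adjusted p under 0.1 (1 to 9). Of U87 bases, 33.2% were absent at a score of at least 5 and 23.2% at 20, and 44.1% were kept at 20; single libraries left out gave 31.04% to 37.2% absent and 40.4% to 52.2% kept. Shared sites were 29.2% and 70.4% at a score of at least 20, and shared peaks 53.8% and 69.2% at an overlap of 50%, and 50.4% and 71.6% for the upper 50% of each list. Beside the genes described by their start and internal sums, with bases near starts only the direction turned for AJUBA (-0.085), LRP10 (5.50), TNC (5.30), BIRC2 (5.11), CRYBG1 (3.20), DUSP4 (1.92), FOXM1 (1.71), IGF2BP2 (1.70), AKT2 (1.59), NFE2L2 (1.56), GREM1 (1.49), ZC3H13 (1.27), EPAS1 (0.99), WTAP (0.91), EGFR (0.84), ITGA5 (0.80), JUN (0.61), MALAT1 (0.37), CCND1 (0.24) and ALDH1A3 (0.17), by the number of called bases for MAT2A (-0.59) and BID (-0.76), without bases near starts for BID (-0.12) and with scaled totals for ITGA5 (0.025). By construction, such fits use fewer bases; the cause of other shifts was not tested.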
